A study of Rattus norvegicus with 10 samples.

Results

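The genes described here encode the enzymes that add methyl groups to histones or to arginine residues, the enzymes that remove methyl groups from histone lysines, and the related PRDM proteins. They were chosen by gene symbol alone, as the rows named *Kmt*, *Setd*, *Setmar*, *Ehmt*, *Suv39h*, *Prmt*, *Carm1*, *Nsd*, *Ash1l*, *Dot1l*, *Ezh*, *Smyd*, *Kdm* or *Prdm*, and 63 of the 12828 rows of the deposited table met the rule. All 63 are protein-coding. RNA was sequenced from the arcuate nucleus (ARC), a hypothalamic center of feeding and reproduction, in 10 first-time pregnant Wistar rats at parturition, after a daytime fast. Of these, 5 had been fed the 5X-FA diet (folic acid at 5 times the recommended amount) and 5 the 5X-MTHF diet (an equimolar amount of methyltetrahydrofolate, the reduced form of folate) during pregnancy. The ARC of these dams was cut out by hand from frozen brain slices, so neighboring tissue can be present in each sample.

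The study asked whether the 2 diets change ARC gene expression. That comparison was not analysed here for these genes, because the 10 columns of values per animal carry names that match no dam, and the authors' own fold changes and p-values were not used. The value given for each gene is therefore the authors' average log2 CPM over all libraries. CPM is the number of reads of a gene scaled to a common library size, so an increase of 1 on this log2 scale is a doubling of the reads. It is 1 pooled value per gene with no replicates behind it in the values used, so no SD, n or test stands beside it, and the number of reads counted in each library was not analysed here. CPM is not divided by transcript length, and a long transcript yields more reads than a short one at the same number of molecules. Each value below is thus a share of reads, and the order of genes is an order by reads and not by transcripts per cell.

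DNA is wound around histones in nucleosomes. Methyl groups on lysines and arginines of the histone tails are read by other proteins that open or close chromatin. Methylation of histone H3 at lysine 4 (H3K4) marks promoters and enhancers, that of lysine 36 (H3K36) marks transcribed gene bodies, and that of lysine 9 (H3K9) or lysine 27 (H3K27) marks silent chromatin. All of these methyltransferases take the methyl group from S-adenosylmethionine (SAM), which is remade from methionine with the help of 5-methyltetrahydrofolate, whereas the demethylases use FAD or iron and 2-oxoglutarate. Loss-of-function changes in several of these genes, such as *Kmt2a*, *Ehmt1*, *Nsd1*, *Setd5* and *Kdm5c*, are known in people with disorders of brain development.

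Among the 63 genes the average log2 CPM ran from 1.35 (*Prdm12*) to 8.18 (*Ash1l*), with a median of 5.66. All rows of the table ran from -2.07 to 14.56, with a median of 4.94, so the median member stood at percentile 65.0 of the table. The values of 38 members (60.3%) lay above the median of the table. Members were not concentrated at the top, since 6 of them (9.52%) stood at or above percentile 90, where 10% of rows lie by construction. Below percentile 10 there were 2 members (3.17%), *Prdm6* and *Prdm12*. Together the 63 genes made up 0.384% of the summed CPM and 0.491% of the rows.

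**Figure D1:**
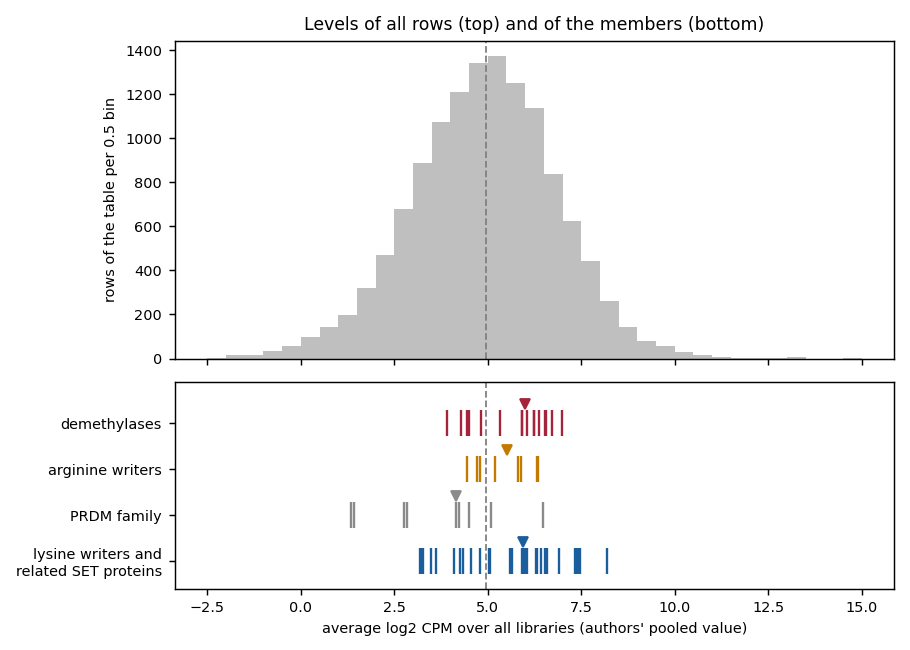
Top, number of rows of the deposited table in bins of the authors' average log2 CPM over all libraries; bottom, each member as a tick on the same axis, in 4 classes, with a triangle at the median of the class and a dashed line at the median of the table (4.94). The median of the 16 demethylases (5.98) and that of the 30 lysine methyltransferases and related SET proteins (5.93) lie to the right of the line, and that of the 9 PRDM genes (4.14) lies to its left.

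The lysine methyltransferases and related SET proteins, 30 genes, took up 58.9% of the members' summed CPM, the 16 demethylases 25.8%, the 8 protein arginine methyltransferases 10.1% and the 9 PRDM genes 5.22%. The 6 members at or above percentile 90 were *Ash1l*, *Nsd1*, *Kmt2e*, *Setd5*, *Kmt2a* and *Ehmt2*. All of these belong to the SET domain proteins, and none is a demethylase, an arginine methyltransferase or a PRDM gene.

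Of the H3K4 methyltransferases, which include the large MLL proteins that act in COMPASS complexes, 7 had a row, and all 7 were above the median of the table. The highest average log2 CPM was that of *Kmt2e* (7.45), an MLL family protein with little or no methyltransferase activity of its own, on chromosome 4 from 8187751 to 8255514 of Rnor_6.0. *Kmt2a*, the founding MLL gene, had 7.38, and *Kmt2b*, its closest paralog, had 5.98. *Setd1a* and *Setd1b* encode the SET1 enzymes, which place most trimethylation of H3K4. Their average log2 CPM values were 6.04 and 5.07. *Setd7*, which adds a single methyl group to H3K4 and also methylates other proteins, had 5.58. *Smyd2*, a lysine methyltransferase of histones, H3K36 among its sites, and of p53, was counted in this role and had 6.29. *Kmt2c* and *Kmt2d*, the remaining MLL paralogs, were not analysed here.

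The 6 H3K36 methyltransferases had the highest median of any role, an average log2 CPM of 6.75, and also the largest share of the members' summed CPM, 21.6%. *Ash1l*, a trithorax group protein that dimethylates H3K36, had the highest value of all 63 members, 8.18 or 290 CPM, at percentile 96.2 of the table. It lies on chromosome 2 from 188253220 to 188389250 of Rnor_6.0. *Nsd1*, on chromosome 17 from 9844133 to 9952898, came second with 7.46. Its paralogs *Nsd3* and *Nsd2* had 6.42 and 5.92. *Setd2* is the enzyme that trimethylates H3K36 behind RNA polymerase II. Its average log2 CPM was 6.91. *Setd3*, first described as an H3K36 enzyme and now known as the actin histidine methyltransferase, had 6.59.

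Values of the H3K9 methyltransferases spread over both sides of the table's median, 3 of 6 above it. *Ehmt2* (G9a) and *Ehmt1* (GLP) encode the partners of the heterodimer that dimethylates H3K9 in euchromatin. *Ehmt2*, on chromosome 20 from 4576057 to 4592980, had an average log2 CPM of 7.33 and *Ehmt1* one of 5.02. *Setdb1*, which silences retroelements together with KRAB zinc finger proteins, had 5.94, while *Setdb2* had 3.48. The SUV39 enzymes, which trimethylate H3K9 in pericentric heterochromatin, lay under the median of the table. *Suv39h1l1*, the Ensembl name of the gene that RefSeq calls *Suv39h1*, had 4.26, and *Suv39h2* had 3.28.

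The H3K27 pair lay on opposite sides of the table's median. *Ezh1* and *Ezh2* are the alternative catalytic subunits of Polycomb repressive complex 2 (PRC2), of which *Ezh2* is known from dividing cells and *Ezh1* from differentiated ones. *Ezh1*, on chromosome 10 from 89104027 to 89130339, had an average log2 CPM of 6.54, or 92.8 CPM, at percentile 80.9 of the table. *Ezh2*, on chromosome 4 from 77284404 to 77347011, had 3.24, or 9.45 CPM, at percentile 18.9. These are reads that are not scaled to the length of either transcript.

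*Dot1l*, the H3K79 methyltransferase, which acts without a SET domain, had an average log2 CPM of 5.66 and was the median member. Among the H4K20 enzymes, *Kmt5b*, which adds the second and the third methyl group, had 6.32, its paralog *Kmt5c* 4.78 and the monomethylase *Kmt5a* 4.56. Of the remaining SET and SMYD proteins, *Setd5*, a chromatin regulator whose own enzymatic activity is debated, stood apart with 7.40. The other 4 lay under the median of the table. They were *Smyd5* (4.33), *Setd4* (4.11), *Smyd4* (3.62) and *Setd6* (3.19), the last a methyltransferase of the NF-kappaB subunit RelA.

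**Figure D2:**
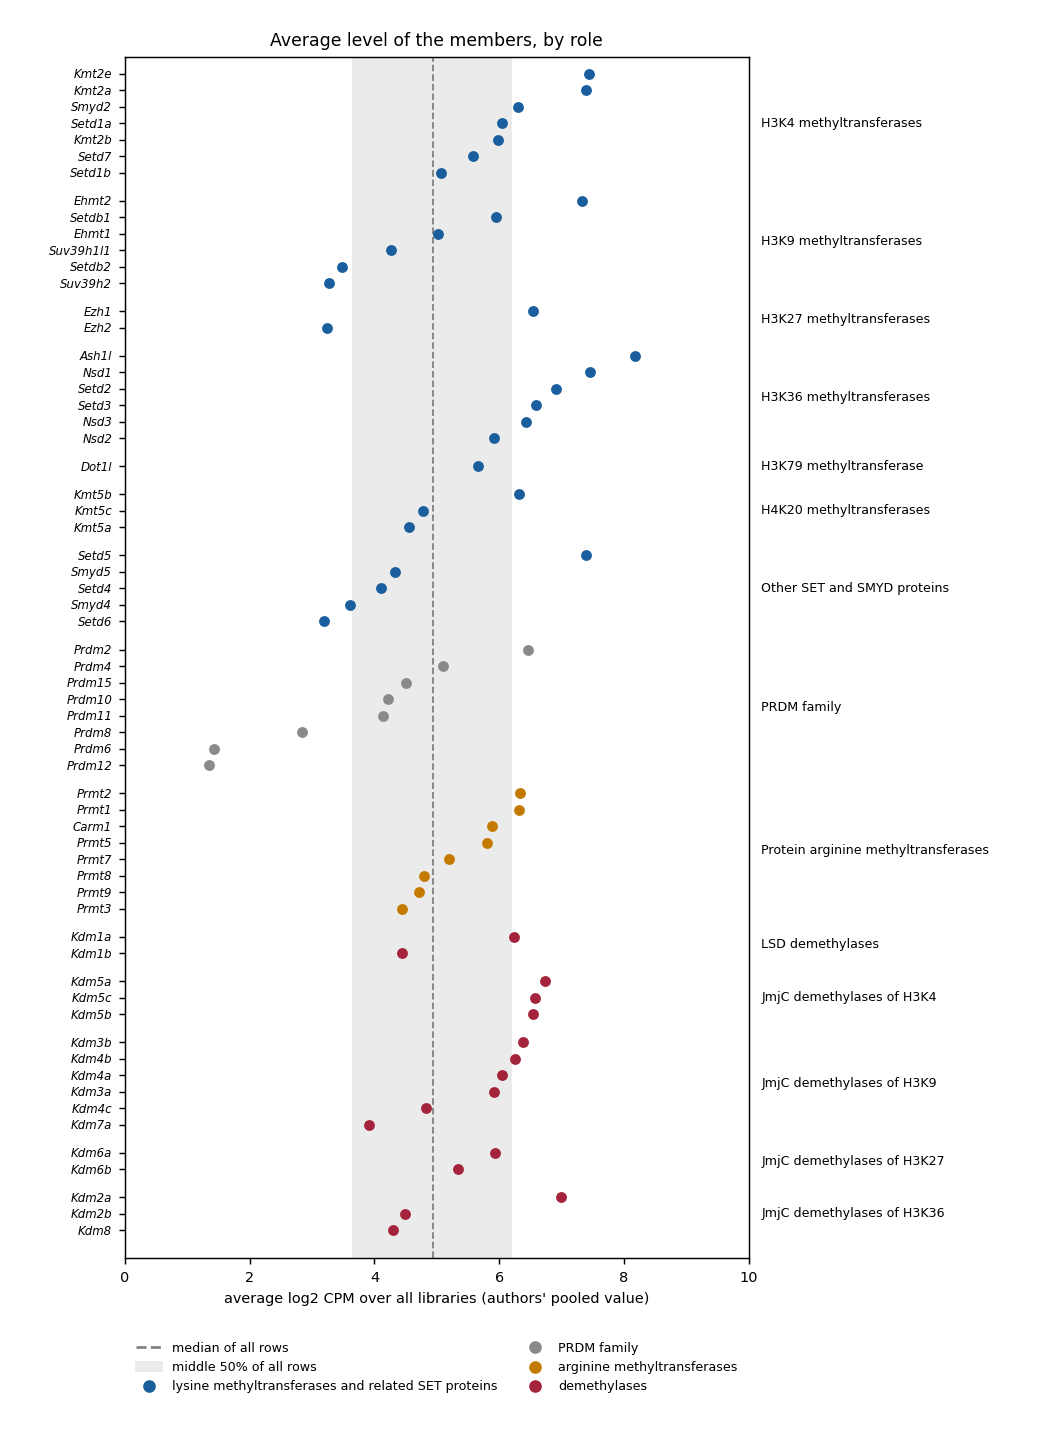
Authors' average log2 CPM over all libraries of 62 of the 63 members, grouped by role and sorted within it; each point is 1 gene and 1 pooled value, the dashed line is the median of all rows and the gray band their middle 50%. *Ash1l* lies farthest to the right at 8.18, and *Prdm6* and *Prdm12* farthest to the left at 1.43 and 1.35.

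PRDM proteins carry a PR domain, a relative of the SET domain, together with zinc fingers, and many act as transcription factors of particular cell lineages rather than as enzymes. Of the 9 with a row, 7 lay under the median of the table. *Prdm2* (RIZ1), which is widely expressed, had the highest average log2 CPM of the family with 6.47, and *Prdm4* followed with 5.10. *Prdm15*, *Prdm10* and *Prdm11* had 4.50, 4.22 and 4.14. *Prdm8*, a repressor in developing neurons, was lower with 2.83. The lowest values were those of *Prdm6* (1.43), known from smooth muscle, and *Prdm12* (1.35 or 2.55 CPM), a gene of sensory neurons that is also known from the hypothalamic lineage of POMC neurons.

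Protein arginine methyltransferases methylate histones, splicing factors and many other proteins. Of the 8 with a row, 5 were above the median of the table, and their own median was 5.51. The highest values were those of *Prmt2* (6.34) and *Prmt1* (6.31), the latter the main source of asymmetric dimethylarginine in mammalian cells. *Carm1* (PRMT4), a coactivator of nuclear receptors, had 5.89, and *Prmt5*, the main symmetric dimethylase, had 5.81. *Prmt7*, which makes monomethylarginine, had 5.20. *Prmt8*, a membrane-bound paralog of *Prmt1* that is largely confined to neurons, had 4.79, on chromosome 4 from 160253073 to 160334910. *Prmt9* and *Prmt3*, the latter known to methylate a ribosomal protein, had 4.72 and 4.44, and *Prmt6* was not analysed here.

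Demethylases were of 2 kinds. The FAD-dependent enzymes *Kdm1a* (LSD1), part of the CoREST repressor complex, and *Kdm1b* (LSD2) had average log2 CPM values of 6.24 and 4.44. The JmjC enzymes that act on H3K4 lay close together. *Kdm5a* had 6.73, the X-linked *Kdm5c* 6.57 and *Kdm5b* 6.54, so that all 3 lay between percentiles 80.9 and 83.7 of the table. *Kdm5c* lies on chromosome X from 22302485 to 22348627, and its Y-linked counterpart *Kdm5d* was not analysed here.

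Of the 6 JmjC enzymes of H3K9, 4 were above the median of the table. *Kdm3b* and *Kdm3a*, which remove the first and second methyl group, had 6.38 and 5.91. *Kdm4b*, *Kdm4a* and *Kdm4c*, which act on trimethylated H3K9 and H3K36, had 6.25, 6.04 and 4.83. *Kdm7a* acts on H3K9 and H3K27 and had the lowest value of the 16 demethylases, 3.91. The H3K27 demethylases, X-linked *Kdm6a* (UTX) and the inducible *Kdm6b* (JMJD3), had 5.93 and 5.34. Among those of H3K36, *Kdm2a* had the highest value of any demethylase, 6.99. Its paralog *Kdm2b*, which brings a Polycomb complex to CpG islands, had 4.49. *Kdm8*, counted in this role although its demethylase activity on H3K36 is debated, had 4.30.

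Genes of the complexes in which these enzymes work were looked up as lists of partners. Of 9 listed PRC2 partners 8 had a row, with average log2 CPM values between 4.43 (*Aebp2*) and 7.12 (*Rbbp7*), and 5 were above the median of the table. The core subunits *Eed* and *Suz12*, without which neither EZH enzyme is active, had 4.48 and 5.36. All 12 COMPASS partners had a row, 9 of them above the median, from *Pagr1* (3.84) to *Psip1* (8.04), and *Wdr5*, the scaffold shared by the MLL and SET1 complexes, had 4.91. Of the 4 listed partners of PRMT5, 3 had a row, *Riok1* (5.09), *Coprs* (5.59) and *Clns1a* (5.87). Among 7 CoREST and LSD1 partners 6 genes had a row, and *Rcor1*, the CoREST scaffold, had 2 rows, 2.83 and 4.12, whose reads may be split between them. The highest of this list was *Hdac2* with 6.41. Of 12 proteins that bind methylated lysine, 11 had a row and 5 were above the median, from *Cbx8* (2.73) to *Cbx6* (7.52), both chromobox proteins of Polycomb complexes.

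The SAM cycle feeds the methyltransferases. Of 12 genes listed for it and for its side branches and relatives, 10 had a row, 7 of them above the median. *Mat2a*, the catalytic subunit of SAM synthetase outside the liver, had an average log2 CPM of 8.02 and its regulatory subunit *Mat2b* 6.38. *Ahcy* hydrolyzes S-adenosylhomocysteine, the product that inhibits methyltransferases, and had 5.79. Its relative *Ahcyl1*, a regulator of the IP3 receptor, had the highest value of the list, 9.15. Another relative, *Ahcyl2*, had 7.38, and *Amd1*, which draws SAM off for polyamines, had 7.58. Among the 7 genes above the median, *Ahcyl1*, *Ahcyl2* and *Amd1* are thus not enzymes that supply the methyltransferases. Enzymes that join folate to the cycle were lower, with *Mtr* (methionine synthase) at 4.51 and *Mtrr*, which keeps that enzyme active, at 4.60. The betaine enzyme *Bhmt* and the glycine methyltransferase *Gnmt*, both known from liver, were not analysed here.

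The labeled region was checked against markers. Of 11 ARC markers 10 had a row, among them *Pomc* (4.67), *Cartpt* (6.02), *Th* (5.20), *Tac3* (4.34), *Agrp* (1.42) and *Kiss1* (0.08), and 2 were above the median of the table. Markers of other cells were present too. All 5 astrocyte markers (5.51 to 10.22) and all 5 oligodendrocyte markers (7.26 to 12.59) were above the median, as were both markers of oligodendrocyte precursors, 3 of 3 endothelial markers with a row and 1 of 5 microglial ones. Markers of striatum (5 of 5 with a row, 4.26 to 7.07), of cortex and hippocampus (4 of 5, 2.13 to 7.17) and of thalamus (5 of 5, 2.34 to 7.43) were also found, with 4, 1 and 2 of them above the median. The median of the striatal markers was 5.37, against 3.22 for those of the ARC list, in reads not scaled to transcript length. The 2 lists hold different genes, so these medians do not measure how much of each region was present. Of 5 pituitary markers 2 had a row, *Tshb* (3.37) and *Cga* (4.95), and *Prl*, *Gh1* and *Pou1f1* were not analysed here. Of 5 markers of tanycytes and ependyma 3 had a row, from *Rax* (0.08) to *Vim* (7.32). The values of the 63 genes are those of this mixture of cells, and in bulk tissue fewer cells of a type and less RNA per cell cannot be told apart. Which cell type each gene's reads came from was not tested.

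**Figure D3:**
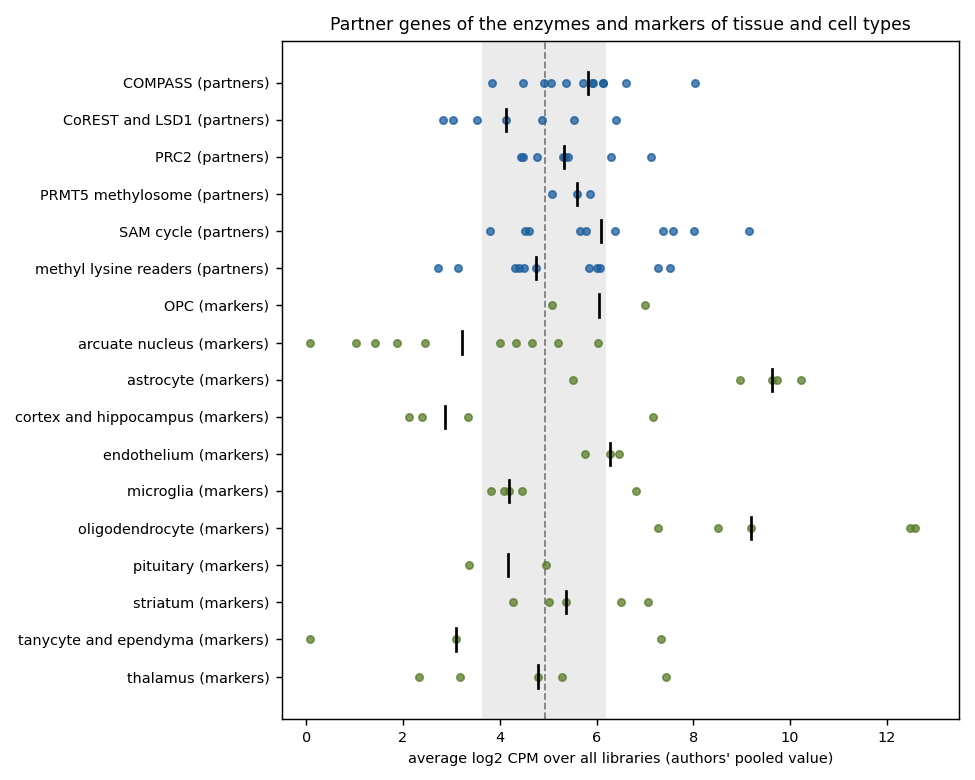
Authors' average log2 CPM over all libraries of the genes that work with the enzymes (blue) and of markers of regions and cell types (green); each point is 1 row of the table, the black bar is the median of the list, the dashed line the median of all rows and the gray band their middle 50%. The SAM cycle list reaches 9.15 (*Ahcyl1*, a relative of *Ahcy*), oligodendrocyte markers reach 12.59 (*Mbp*), and ARC markers reach 6.02 (*Cartpt*).

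The members lay on 21 chromosomes. Chromosome 4 held 9 of them (14.3%, against 5.53% of all rows), chromosome 1 held 8 (12.7% against 12.2%) and chromosome X held 3 (4.76% against 3.48%), *Kdm5c*, *Kdm6a* and *Suv39h1l1*. Along the chromosomes 2 pairs of members were less than 1000 kb apart, each a methyltransferase beside a demethylase. *Kmt5b* ends 516 kb before *Kdm2a* on chromosome 1, with 24 other rows of the table between them, and *Setd1b* ends 209 kb before *Kdm2b* on chromosome 12, with 5 between them. The genes were long. Their median span, introns included, was 46.1 kb against 21.5 kb for all rows, and 48 of 63 exceeded the latter. *Setd6* had the shortest span of the members and *Kdm4c* the longest, 213 kb.

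Promoters were taken from RefSeq on the newer assembly GRCr8, as the 250 bases before the start of each gene, the farthest upstream where several are listed. A promoter was matched to 51 of the 63 members (81.0%), *Suv39h1l1* through its older name, and to 9719 rows of the table (75.8%). The missing 12 include *Ash1l*, *Kmt2a*, *Kmt2e*, *Setd5* and *Ezh1*, so the members highest in reads are underrepresented. CpG dinucleotides are the sites of DNA methylation, and their observed number over that expected from the C and G content is high in CpG islands, which stay unmethylated at most promoters of widely expressed genes. The sequences of the matched members with the highest and the lowest average log2 CPM are printed to show this, 5′ to 3′ on the strand of the gene, with each CG in capitals. They are those of *Nsd1* (chr17:9429522-9429771, minus strand), *Ehmt2* (chr20:3940711-3940960, minus strand), *Setd6* (chr19:9356516-9356765, minus strand) and *Prdm12* (chr3:35322712-35322961, plus strand).
Nsd1: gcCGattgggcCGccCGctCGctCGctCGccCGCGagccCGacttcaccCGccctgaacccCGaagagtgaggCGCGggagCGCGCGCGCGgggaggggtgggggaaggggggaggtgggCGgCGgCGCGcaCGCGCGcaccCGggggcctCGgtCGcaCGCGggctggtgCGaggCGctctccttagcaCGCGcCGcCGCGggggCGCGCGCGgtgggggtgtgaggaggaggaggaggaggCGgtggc
Ehmt2: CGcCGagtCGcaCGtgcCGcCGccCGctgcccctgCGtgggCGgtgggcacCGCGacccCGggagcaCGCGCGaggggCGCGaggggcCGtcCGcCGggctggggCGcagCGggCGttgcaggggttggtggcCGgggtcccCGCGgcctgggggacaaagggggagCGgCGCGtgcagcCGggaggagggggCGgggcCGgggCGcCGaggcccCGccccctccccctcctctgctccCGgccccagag
Setd6: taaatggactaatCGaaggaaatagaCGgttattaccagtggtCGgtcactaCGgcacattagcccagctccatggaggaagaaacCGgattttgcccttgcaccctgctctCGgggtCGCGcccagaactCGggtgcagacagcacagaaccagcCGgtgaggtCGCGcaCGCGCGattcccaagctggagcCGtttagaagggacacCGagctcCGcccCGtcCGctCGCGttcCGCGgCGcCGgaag
Prdm12: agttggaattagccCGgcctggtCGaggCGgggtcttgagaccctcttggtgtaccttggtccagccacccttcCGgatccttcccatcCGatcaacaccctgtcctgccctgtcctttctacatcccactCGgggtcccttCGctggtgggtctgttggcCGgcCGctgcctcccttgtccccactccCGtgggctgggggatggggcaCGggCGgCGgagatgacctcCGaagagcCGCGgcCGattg

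In these 250 bases *Nsd1* has 42 CpG and a ratio of observed to expected CpG of 1.10, *Ehmt2* 36 and 0.84, *Setd6* 26 and 1.13, and *Prdm12* 17 and 0.63. *Setd6*, with few reads, thus has a higher ratio than *Ehmt2*, with many. Over the 51 matched members the median ratio was 0.81, against 0.75 over all matched rows, and 47 members (92.2%) had a ratio of at least 0.6, against 70.1% of all matched rows. The 4 members under 0.6 were *Prdm4* (0.37), *Prdm10* (0.40), *Smyd5* (0.58) and *Kdm4a* (0.59), and the highest ratio was that of *Nsd2* (1.21). The core TATA motif, with the letters TATAAA, was found on either strand in 1 member, *Prdm4* (1.96%, against 5.99% of all matched rows). The letters GGGCGG, which SP1 binds and which hold a CG themselves, were found on either strand in 35 members (68.6% against 59.7%). These are counts of letters and were not tested.

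**Figure D4:**
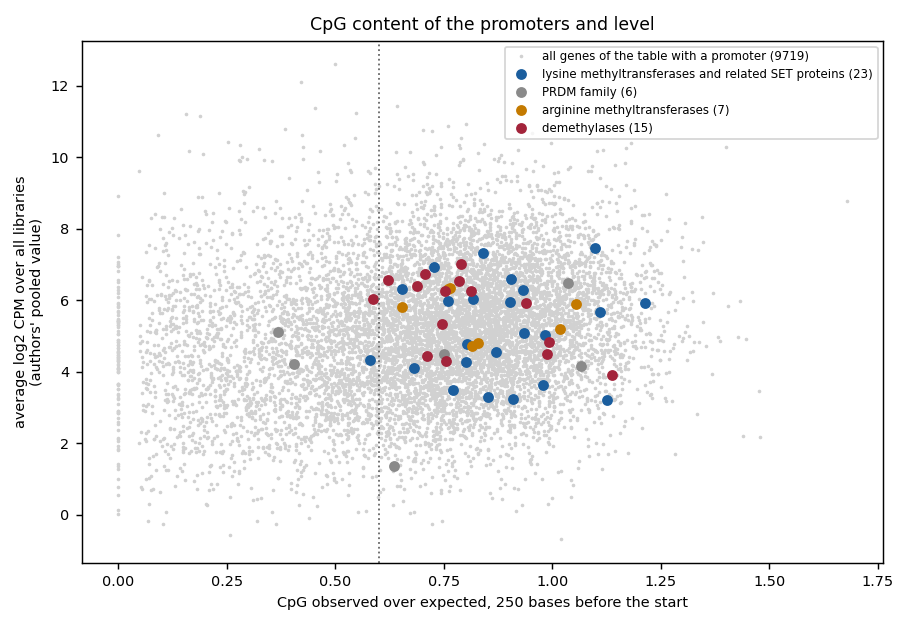
Ratio of observed to expected CpG in the 250 bases before the start (horizontal axis) and the authors' average log2 CPM over all libraries (vertical axis) for 51 members, colored by class, and for 9719 matched rows of the table (gray); the dotted line marks a ratio of 0.6. Of the members, 47 lie at or to the right of the line, and *Prdm4* and *Prdm10* lie farthest to the left.

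Some members share sequence with other genes. RefSeq lists 83 protein-coding genes whose symbols meet the rule, and the 63 members correspond to 63 of them. The other 20 were not analysed here. Among the members, 9 have at least 1 further RefSeq gene or pseudogene named after them, up to 5 for *Kmt5a* and 4 for *Prmt1*. Reads that fit a copy as well as the gene may be missing from these values. The spans of 3 members overlap that of another row of the table, *Carm1* with *Yipf2*, *Dot1l* with *Plekhj1* and *Setdb1* with *Cers2*, and although the libraries were stranded, the strand setting of the counting is not given in the sources used here.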

How the data were processed

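Total RNA of the ARC of 10 dams, 5 per diet as labeled, was sequenced as poly-A selected libraries on an Illumina HiSeq. The submitters' notes name Trim Galore 0.5.0, STAR 2.6.0c, HTSeq 0.6.1p2 and the build Rnor_6.0, and the authors removed genes with few reads, so that low genes can be absent. The authors deposited for each gene an average log2 CPM over all libraries, a value on a log2 scale that is not divided by length; the tool that averaged it is not given in the sources used here. Base 2 was checked on the values, since 2 to that power sums to 1002152 over the 12828 rows. Columns of the authors' own comparison of the diets hold its log2 fold change, F, p-value and false discovery rate, and were not used. Another 10 columns per animal match no sample label and were used in no step, so the diet tests planned on values per dam were not run, groups were not compared, and neither the total count of each library nor the precision it gives was analysed here.

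Members were found by gene symbol. Percentiles are the percent of rows with a lower value, and the promoter summary used RefSeq sequences (GRCr8). The percentile calculation was tested on simulated data, and the CpG and motif counts on short known sequences. The other steps were not tested in this way. Members and lists were chosen with earlier results of these data known. The rule for naming took the 3 highest and 3 lowest members of each role and those outside percentiles 10 to 90; the remaining members are named too, except that 1 member and 1 partner gene are counted but not reported here by name, partner lists by their highest and lowest member, and partners or markers beyond those were chosen after their values were seen. Software was pandas 2.3.3, numpy 2.4.6 and scipy 1.17.1 under Python 3.11.15, and figures were drawn in matplotlib 3.10.9.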

Additional observations from a re-analysis of the deposited data

How the results depend on the processing

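The median member stood at percentile 65.0 of all rows, 64.1 among protein-coding rows and 64.0 among rows whose log2 CPM was 1 or more. It stood at 70.0 without the PRDM family and at 66.6 without members that have a RefSeq copy, the last 2 chosen after seeing the data. With protein-coding rows whose name occurs once, all 63 members remained. The count at or above percentile 90 was 6 in each of these settings. It could not change where only members were filtered, since none of the 6 is a PRDM gene, has a copy or repeats a name. The count under percentile 10 was 2 except without the PRDM family, where it was 0 because both genes belong to it. Values per kb of transcript were not run, since no transcript lengths were at hand, and a span with introns would not stand in for them. No paired analysis was possible because the columns per animal carry no name or number that matches the labels of the dams; for the same reason the fits planned with other pseudocounts, filters, normalizations and without single dams were not run.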
